A study of Caenorhabditis elegans with 6 samples.

Results

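Transcripts of 10 axonal transport and cytoskeleton genes were measured in 2 classes of monoamine neuron of the nematode Caenorhabditis elegans. The genes were taken by gene symbol from a given list of kinesin, dynein, adaptor and axonal scaffold genes. All 10 were found among the 47063 genes of the deposited tables, and all 10 passed the filter on low values. RNA was sequenced in 3 libraries labelled dopamine neurons and 3 labelled serotonin neurons, all from strain FQ939 with a WT genotype and with embryos and larvae as the tissue. The labels give no reporter, sorting gate or number of animals, and nothing in them says that replicates came from separate cultures, so p-values describe the spread among these 6 libraries alone, and that spread may be technical. Dopamine neurons of this animal are ciliated mechanosensory cells that feel the texture of food, and the serotonin neurons include the pharyngeal NSM cells.

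Axons make few proteins of their own, and most cargo moves from the cell body along parallel microtubules. Kinesins walk toward the plus ends, which point to the axon tip, and cytoplasmic dynein with its activator dynactin walks back. Adaptor proteins couple motors to cargo and switch them on or off. A scaffold of ankyrin, spectrin and microtubule-binding proteins holds the tracks in place and helps to keep axonal and dendritic cargo apart. Most of these genes were found in worms as unc mutants, which move badly because axons grow or fill wrongly.

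Recovered reads assigned to genes ranged from 20418663 to 31559049 per library. Dopamine 1 and serotonin 3 were rich in nuclear ribosomal RNA (40.9% and 41.5% of reads), which took 7.53% to 13.7% in the rest. Protein-coding genes kept 10507502 to 25677630 reads per library, and the 10 genes together took 1.18% to 1.78% of these. The fewest reads behind any single value were 562, for unc-119 in dopamine 1. All 6 dopamine identity genes passed the test toward dopamine neurons, and 3 of the 5 tested serotonin identity genes passed toward serotonin neurons. All 5 markers of pharyngeal muscle passed toward serotonin neurons, and they summed to 30779 to 56125 normalized counts in the serotonin libraries and to 322 to 639 in the dopamine libraries. Markers of body wall muscle were high in both, summing to 29623 to 50777 in dopamine and 32007 to 60339 in serotonin libraries. Single markers differed, as 1 of these 6 passed toward dopamine and 2 toward serotonin neurons. Pan-neuronal genes outside the 10 summed to 119731 to 185940 normalized counts in dopamine and 65190 to 101874 in serotonin libraries, without overlap. In such bulk libraries fewer cells of a type and less RNA per cell cannot be told apart.

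The series addresses how tactile, food-sensing neurons work, and its design compares dopaminergic with serotonergic expression. Without a replicate block, none of the 10 genes passed at an adjusted p under 0.05 in either direction (limma, adjusted over all 15750 tested genes). The background was 9.52% of all tested genes called in either direction. At an unadjusted p under 0.05 there were 3, namely unc-104, unc-16 and unc-119, beside 22.4% of all tested genes. By edgeR and by DESeq2 on recovered reads the count was also 0. EdgeR called 2.64% of genes toward dopamine and 4.75% toward serotonin neurons (7.39% in all), and DESeq2 4.64% and 8.62% (13.3% in all). The median log2 fold change, dopamine minus serotonin, was 0.21 over the 10 genes and -0.07 over all tested genes. For 7 of the 10 the 95% interval of the difference lay inside a 2-fold change in either direction, as it did for 15.96% of all tested genes. These shares are not matched for abundance. The lowest of the 10, unc-119, averaged 700 normalized counts in the dopamine libraries, and only 3917 of the tested genes had a mean of at least 500. The intervals also hold for 1 scaling only, and relative to pan-neuronal genes the estimate for unc-116, 1 of the 7, was -1.18. Levels below are FPKM, fragments per kilobase of gene scaled for depth, and fold changes come from log2(normalized count + 1), both on the authors' scaling between libraries unless another is named.

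**Figure D1:**
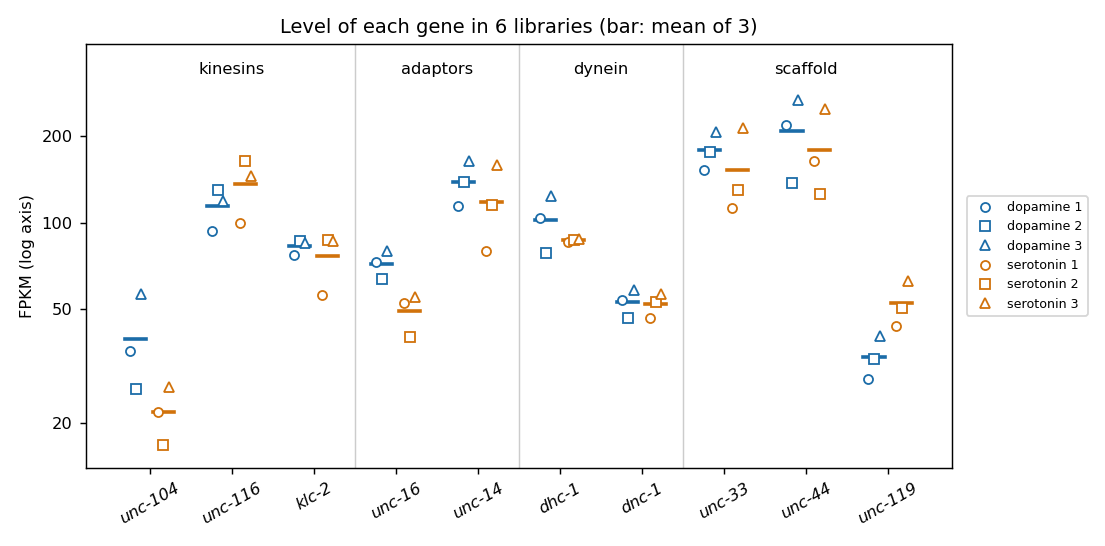
FPKM (log axis) of the 10 genes in each of the 6 libraries, grouped by role, with open symbols for libraries 1 to 3 and bars for the mean of 3. Levels of the cell types overlap for 8 of the 10 genes, and those of unc-16 and unc-119 do not.

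Among the motors, unc-116 encodes the heavy chain of kinesin-1, the general motor of axonal cargo (WBGene00006840, WBcel235 chromosome III, 8351164 to 8355174, minus strand). It stood at 93.8, 129.7 and 119.1 FPKM in dopamine libraries 1, 2 and 3 and at 100.1, 164 and 146 in serotonin libraries 1, 2 and 3. The 2 groups overlapped, with serotonin 2 highest and dopamine 1 lowest. Its log2 fold change was -0.24 (95% interval -0.79 to 0.31, limma adjusted p = 0.617), so a fold between 0.579 and 1.24 was left by these libraries.

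The light chain gene klc-2, whose protein binds the kinesin-1 tail and its cargo, lies on chromosome V (WBGene00002215, 5576472 to 5581412, minus strand). Its levels were 77.3, 86.2 and 85.2 FPKM in the dopamine libraries and 56.2, 87.5 and 86.2 in the serotonin libraries. Only serotonin 1 stood apart, below the other 5 libraries. The log2 fold change was 0.14 (95% interval -0.39 to 0.67, limma adjusted p = 0.779).

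The third kinesin gene, unc-104, encodes the KIF1A-type kinesin-3 that carries synaptic vesicle precursors (WBGene00006831, chromosome II, 6994987 to 7010625, plus strand). It had 35.7, 26.4 and 56.5 FPKM in the dopamine libraries against 21.9, 16.8 and 26.8 in the serotonin libraries. The groups met at dopamine 2 and serotonin 3, whose values nearly coincided, and dopamine 3 was far above all others. The difference was the largest of the 10 in size, 1.75-fold higher in the dopamine mean (log2 fold change 0.81, SE 0.31, 95% interval 0.14 to 1.48), but it did not pass (limma adjusted p = 0.137). With the replicate number as a block unc-104 passed (limma adjusted p = 0.00453, with 0.00453 to 0.675 across the alternatives), and dopamine exceeded serotonin within each of the 3 numbers. Without dopamine 3 its log2 fold change was 0.51, and relative to pan-neuronal genes it was -0.13.

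Both adaptors act with kinesin-1. The JIP3 homolog gene unc-16, whose protein links cargo to kinesin-1 and to JNK signalling and also limits organelle entry into the axon, lies on chromosome III (WBGene00006755, 9546258 to 9557450, plus strand). It stood at 73, 63.8 and 79.7 FPKM in the dopamine libraries and at 52.5, 40 and 55.2 in the serotonin libraries. The lowest dopamine value exceeded the highest serotonin value, as was the case for 12.3% of all tested genes. The dopamine mean was 1.47-fold higher on the log2 scale (log2 fold change 0.56, SE 0.23) and did not pass (limma adjusted p = 0.169). It passed once the replicate number was a block (limma adjusted p = 0.0211, with 0.0211 to 0.508 across the alternatives). Scaled to pan-neuronal genes its log2 fold change was -0.38. Of the unc-16 exonic bases, 6.06% overlap another gene on the same strand, so a part of its reads is uncertain.

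The RUN-domain protein of unc-14 binds UNC-51 kinase and helps kinesin-1 to move synaptic vesicle proteins (WBGene00006753, chromosome I, 7122614 to 7128246, minus strand). Levels were 114.95, 139 and 164 FPKM in the dopamine libraries and 79.9, 115.5 and 159 in the serotonin libraries. The groups overlapped, with serotonin 1 lowest and both libraries numbered 3 highest. The log2 fold change was 0.28 (95% interval -0.33 to 0.88, limma adjusted p = 0.5997). It became 0.65 in the 4 libraries with less ribosomal RNA and was -0.47 between the 2 libraries rich in it, dopamine 1 minus serotonin 3. The direction thus differed between these subsets, but the latter sets 1 library against 1 of another replicate number. Within each of the 3 numbers the dopamine library was higher.

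Of the retrograde machinery, dhc-1 encodes the cytoplasmic dynein heavy chain, the motor that walks to minus ends in every cell type (WBGene00000962, chromosome I, 4386785 to 4401907, plus strand). It had 103.7, 78.7 and 124 FPKM in the dopamine libraries. In the serotonin libraries it varied little, at 86, 86.9 and 87.6. The dopamine values enclosed those of the serotonin libraries. The log2 fold change of dhc-1 was 0.21 (95% interval -0.26 to 0.68, limma adjusted p = 0.615).

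The dynactin gene dnc-1 encodes p150Glued, the subunit that holds dynein on microtubules (WBGene00001017, chromosome IV, 10926720 to 10933203, minus strand). Its levels were 53.8, 46.5 and 58.6 FPKM in the dopamine libraries and 46.5, 53.1 and 56.4 in the serotonin libraries. No other gene of the 10 varied so little, with a highest value 1.26 times the lowest over the 6 libraries. The log2 fold change was 0.03 with an interval of -0.45 to 0.50, or 0.730 to 1.42 as a fold (limma adjusted p = 0.965). Over 3917 genes with a mean of at least 500 normalized counts, 6.59% had a smaller within-group SD than dnc-1.

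The scaffold genes unc-33, unc-44 and unc-119 act in 1 pathway that organizes axonal microtubules and sorts axonal from dendritic cargo. The ankyrin gene unc-44 lies on chromosome IV (WBGene00006780, 5975557 to 6004857, plus strand) and its giant neuronal forms link membrane proteins to spectrin. It was the most abundant of the 10, at 219, 138 and 268 FPKM in the dopamine libraries and 164, 126 and 249 in the serotonin libraries. Both groups spanned nearly the same range, with both libraries numbered 2 lowest and both numbered 3 highest. The log2 fold change was 0.22 (95% interval -0.42 to 0.86, limma adjusted p = 0.7098), and it was 0.42 in the 4 libraries with less ribosomal RNA.

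The CRMP homolog gene unc-33, whose protein binds microtubules and sits downstream of UNC-44, is on the same chromosome (WBGene00006769, 3516886 to 3526602, plus strand). It stood at 152, 177 and 208 FPKM in the dopamine libraries and at 113, 131 and 214 in the serotonin libraries. Serotonin 3 was the highest of all and the other 2 serotonin libraries the lowest, so the groups overlapped. The log2 fold change of unc-33 was 0.28 (95% interval -0.30 to 0.86, limma adjusted p = 0.586). It was 0.66 in the 4 libraries with less ribosomal RNA and -0.49 between the 2 rich in it, which carry different replicate numbers.

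The lipid-binding chaperone gene unc-119, which is needed for axon growth and branching, was, with unc-116, higher in the serotonin mean (WBGene00006843, chromosome III, 10902641 to 10908935, plus strand). Its levels were 28.6, 33.7 and 40.3 FPKM in the dopamine libraries and 43.8, 50.6 and 63 in the serotonin libraries. Every serotonin library lay above every dopamine library, as for 15.1% of all tested genes. The 2 genes without overlap among the 10 compare with 27.4% of tested genes in either direction. The serotonin mean was 1.53-fold higher on the log2 scale (log2 fold change -0.61, SE 0.27, 95% interval -1.21 to -0.02), and the gene did not pass (limma adjusted p = 0.209, with 0.00315 to 0.5199 across the alternatives). The difference was -0.35 in the 4 libraries with less ribosomal RNA and -1.14 between the 2 rich in it, again of different replicate numbers. It was -1.55 relative to pan-neuronal genes, where unc-119 passed (limma adjusted p = 0.00315).

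**Figure D2:**
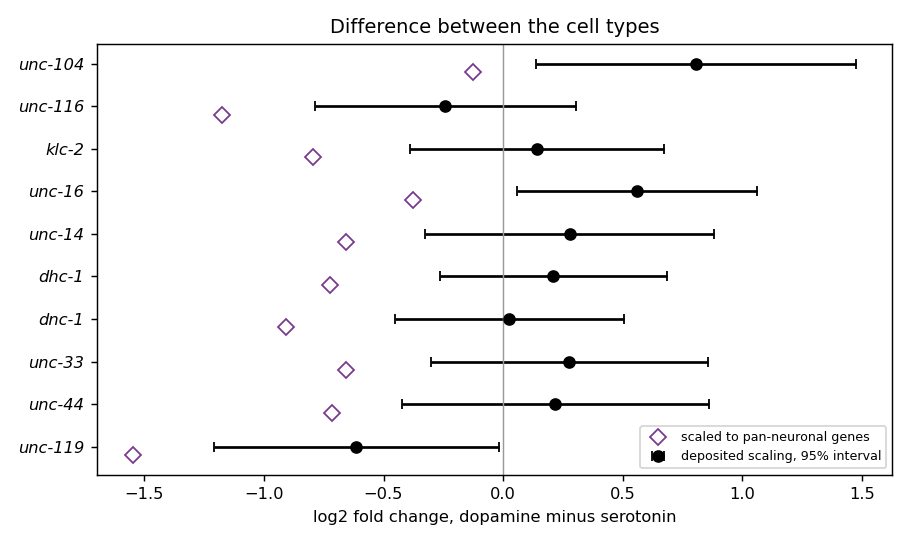
Log2 fold change, dopamine minus serotonin, of each gene with its 95% limma interval (filled points) on the authors' scaling and its value when libraries are scaled to pan-neuronal genes (open diamonds). Filled points run from -0.61 for unc-119 to 0.81 for unc-104, and all diamonds lie below 0.

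A list of 19 pan-neuronal genes that excluded the 10 had larger fold changes, a difference that was not tested. Of those 19 genes, 11 passed toward dopamine neurons, beside a background of 3.16% of all tested genes called in that direction, with a median log2 fold change of 0.92 against 0.21 for the 10. This count was 0 without dopamine 3, 1 without serotonin 2, 2 without both libraries rich in ribosomal RNA, 3 without dopamine 1 and 5 without serotonin 1, while the median stayed between 0.75 and 1.13. Under ribosomal protein scaling the count fell to 1, with a median of 0.78. It was 7 by edgeR, 9 on FPKM, 12 by DESeq2 and 16 with the replicate block. When libraries were scaled to these 19 genes, all 10 transport and scaffold genes had negative log2 fold changes, with a median of -0.72 beside -0.98 for all tested genes. In that setting 5 of the 10 passed toward serotonin neurons, namely unc-116 (-1.18), dhc-1 (-0.72), dnc-1 (-0.91), unc-44 (-0.72) and unc-119 (-1.55), against 22.4% of all tested genes, while 0 of the 10 and 1.1% of all passed toward dopamine neurons. Scaled to ribosomal protein genes, the median was 0.08 for the 10 and -0.20 for all tested genes. Across the scalings tried, unc-116 and unc-119 were lower in dopamine neurons under each, and the direction of the other 8 genes depended on the scaling. The higher pharyngeal muscle markers in the serotonin libraries moved with the same contrast, and their part in these values was not tested.

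With the replicate number as a block, 2 of the 10 genes passed toward dopamine neurons, unc-104 and unc-16, beside 6.78% of all tested genes, and 0 toward serotonin neurons, beside 11.7%. By edgeR with the same block these were again unc-104 and unc-16 (adjusted p = 0.0150 and 0.0419), beside 4.96% of all tested genes toward dopamine and 7.54% toward serotonin neurons (12.5% in all). Without the block neither gene passed by any tool.

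Levels per length gave almost the same order in both cell types. In dopamine neurons the means fell from unc-44 (208 ± 65.6 FPKM, SD, n = 3) through unc-33 (179 ± 27.7), unc-14 (139 ± 24.5), unc-116 (114 ± 18.4), dhc-1 (102 ± 22.8), klc-2 (82.9 ± 4.85), unc-16 (72.1 ± 7.99), dnc-1 (53 ± 6.07) and unc-104 (39.5 ± 15.5) to unc-119 (34.2 ± 5.86). The range of each gene overlapped that of the next, except that unc-16 lay wholly above dnc-1. In serotonin neurons unc-44 (179.7 ± 63.1) and unc-33 (152 ± 53.8) again came first, followed by unc-116 (137 ± 32.9), unc-14 (118 ± 39.7), dhc-1 (86.8 ± 0.783) and klc-2 (76.6 ± 17.7). There unc-119 (52.5 ± 9.73) stood beside dnc-1 (52 ± 5.01) and unc-16 (49.2 ± 8.11), and unc-104 came last (21.9 ± 4.99), wholly below unc-16. No other neighbours in the serotonin order were separated beyond their ranges. The highest mean was 6.09 times the lowest in dopamine and 8.22 times in serotonin neurons. Spearman's rho between the 2 sets of means was 0.903 over the 10 genes, as a description.

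All 10 genes were abundant. Among 13156 tested protein-coding genes ranked by mean FPKM, unc-44 was at rank 205 in dopamine and 232 in serotonin neurons, and unc-33 at 258 and 298. The motors dhc-1 and unc-116 ranked 529 and 460 in dopamine and 588 and 343 in serotonin neurons. At the lower end unc-104 ranked 1556 and 2665, and unc-119 ranked 1810 and 1080. Gene lengths implied by the FPKM values came to 97.6% to 109.6% of the annotated exons for 8 genes. The exceptions were unc-16, at 71.3% of the annotated length, and klc-2, at 118%, so their places in the order are less certain.

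**Figure D3:**
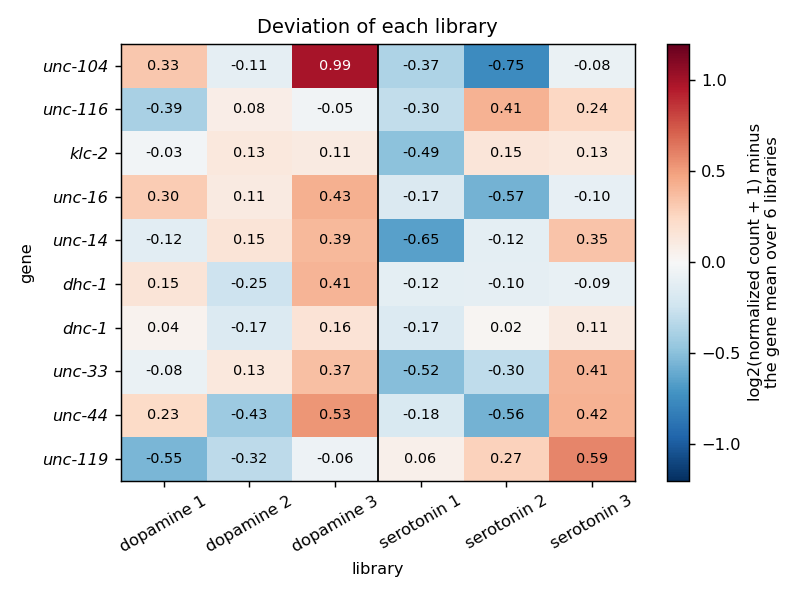
Deviation of each library from the gene's mean over the 6 libraries, in log2(normalized count + 1), for the 10 genes (rows) and 6 libraries (columns). Dopamine 3 is highest for 6 genes, and serotonin 1 is above the mean only for unc-119.

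Libraries of the same cell type also differed among themselves. The median deviation from each gene's 6-library mean was 0.38 on the log2 scale in dopamine 3 and 0.19 in serotonin 3, and -0.24 in serotonin 1. Dopamine 3 was the highest library for 6 of the 10 genes, and serotonin 2 and 3 for 2 each. Serotonin 1 was above the mean for unc-119 alone. Within-group SDs on the log2 scale ran from 0.16 for dnc-1 to 0.46 for unc-104 and 0.49 for unc-44. The median was 0.34 for the 3917 genes with a mean of at least 500 normalized counts, which were not matched further for abundance. Of such genes 78.1% varied less than unc-44 and 73.4% less than unc-104, against 21.98% for dhc-1 (0.23) and 16.4% for unc-16 (0.21).

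Ratios within a library do not depend on how libraries are scaled, and 6 pairs of the genes were compared in this way. The ratio of klc-2 to unc-116, light to heavy chain of kinesin-1, was 0.824, 0.664 and 0.715 in the dopamine libraries and 0.562, 0.533 and 0.591 in the serotonin libraries. Every dopamine library exceeded every serotonin library, a 1.30-fold difference in the ratio (exact two-sided permutation p = 0.1, the smallest that 3 against 3 libraries allow, and 0.24 adjusted over the 6 pairs). No pair could therefore pass a threshold of 0.05. The ratio of dnc-1 to dhc-1 was 0.519, 0.592 and 0.472 in dopamine and 0.541, 0.611 and 0.644 in serotonin libraries, and the groups overlapped (exact permutation p = 0.2).

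Relative to kinesin-1, the kinesin-3 gene unc-104 had the largest difference in ratio. It stood at 0.380, 0.203 and 0.475 of unc-116 in the dopamine libraries and at 0.219, 0.103 and 0.184 in the serotonin libraries, which overlapped only through dopamine 2 (2.07-fold, exact permutation p = 0.2). Both adaptors were also higher against unc-116 in the dopamine mean, unc-16 by 1.74-fold and unc-14 by 1.43-fold, with overlapping libraries (exact permutation p = 0.2 for each). The ratio of unc-33 to unc-44 was 0.917 ± 0.317 (SD, n = 3) in dopamine and 0.861 ± 0.175 in serotonin neurons (exact permutation p = 0.8). All pairs but the last had an adjusted p of 0.24. Within the 3 replicate numbers the difference had 1 sign throughout for 5 of the 6 pairs, toward dopamine for the 4 ratios to unc-116 and toward serotonin for dnc-1 to dhc-1. An exact sign-flip permutation test over the numbers gave p = 0.25 for each of these 5, the smallest that 3 numbers allow, and 0.3 adjusted over the pairs. The 4 ratios to unc-116 share a denominator that was itself lower in dopamine within each number, so they are not separate observations.

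**Figure D4:**
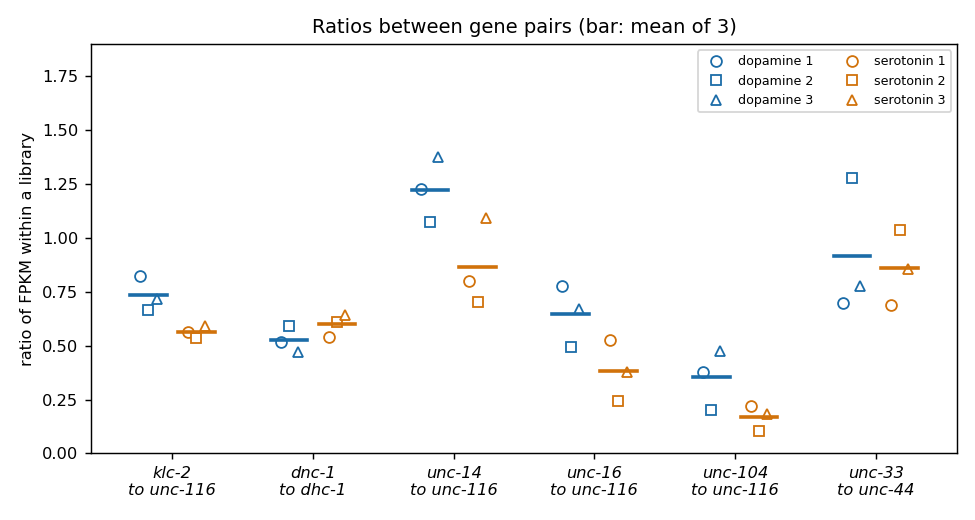
Ratio of FPKM within each library for 6 gene pairs, with symbols for libraries 1 to 3 and bars for the mean of 3. The dopamine and serotonin libraries do not overlap for klc-2 to unc-116 and overlap for the other 5 pairs.

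Other genes of the same pathway were read from lists of kinesins, dynein and dynactin subunits, cargo adaptors with motor regulators, and axonal cytoskeleton genes. Of 11 other kinesin genes, none passed toward dopamine neurons and 1 passed toward serotonin neurons, beside 6.36% of all tested genes called in that direction, with a list median of -0.18. That gene was klp-4, a KIF13-type kinesin-3 that moves glutamate receptors in other worm neurons. It had 10.3, 21.2 and 12.6 FPKM in the dopamine libraries and 27.5, 34.8 and 45.3 in the serotonin libraries, which did not overlap. The difference was 2.505-fold (log2 fold change -1.32, SE 0.31, limma adjusted p = 0.0190). It was lost without dopamine 1 or 3 or serotonin 3 (limma adjusted p = 0.0666, 0.0846 and 0.0709) and without both libraries rich in ribosomal RNA (log2 fold change -0.92, limma adjusted p = 0.144, with 5.61e-04 to 0.144 across the alternatives). Pharyngeal muscle markers were also higher in the serotonin libraries, and their part in the klp-4 value was not tested. With the replicate block klp-7 passed toward dopamine neurons (limma adjusted p = 0.00444), beside 6.78% of all tested genes. Toward serotonin neurons klp-4 and klp-13 passed (limma adjusted p = 5.61e-04 and 0.0326), beside 11.7%. EdgeR with the block called 1 gene in each direction, beside 4.96% and 7.54% of all tested genes. Its call toward serotonin neurons was klp-4 (edgeR adjusted p = 0.00681) and not klp-13. Scaled to pan-neuronal genes 5 of the 11 passed toward serotonin neurons, beside 22.4% of all tested genes.

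None of 14 other dynein and dynactin genes passed, with a median of 0.25. The 2 most abundant by normalized count were bicd-1, a Bicaudal D adaptor of dynein, at 43.2, 64.4 and 75.7 FPKM in dopamine and 51.7, 86.7 and 96.8 in serotonin libraries, and the intermediate chain gene dyci-1. The latter had 40.3, 43.4 and 57.5 FPKM in dopamine and 31.9, 33 and 44.6 in serotonin libraries. Both overlapped between the cell types (limma adjusted p = 0.548 and 0.442). With the replicate block dnc-2 passed toward dopamine neurons and nud-2 toward serotonin neurons (limma adjusted p = 0.0339 and 0.0209). This is 1 of 14 in each direction, beside 6.78% and 11.7% of all tested genes. EdgeR with the block called 0 toward dopamine and 1 toward serotonin neurons, beside 4.96% and 7.54%. Scaled to pan-neuronal genes 4 of the 14 passed toward serotonin neurons, near the 22.4% of all tested genes.

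Of 23 cargo adaptors and motor regulators, 6 passed toward dopamine and none toward serotonin neurons, beside 3.16% and 6.36% of all tested genes, with a median of 0.5988. The mitochondrial adaptor gene trak-1, a Milton homolog that links mitochondria to motors, had 97.2, 96.9 and 107 FPKM in the dopamine libraries and 26.5, 25 and 50.8 in the serotonin libraries. The lowest dopamine library was thus well above the highest serotonin library. The fold was 3.10 (log2 fold change 1.63, SE 0.29, limma adjusted p = 0.00401). This call held without each library in turn and ended under 1 of the 19 alternatives, scaling to pan-neuronal genes, where the log2 fold change was 0.70 (limma adjusted p = 0.0551, with 5.57e-05 to 0.0551 across the alternatives).

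The polarity kinase gene sad-1 had 56.2, 52.1 and 71.9 FPKM in the dopamine libraries and 26.2, 22.1 and 30.2 in the serotonin libraries. Its 2.29-fold difference passed (limma adjusted p = 0.00909) except without dopamine 3 (0.0540) and under scaling to ribosomal protein or pan-neuronal genes (0.0543 and 0.344, with 1.82e-04 to 0.344 across the alternatives). The gene ric-7, which is needed to bring mitochondria into axons, had 28.2, 34.3 and 25.6 FPKM in dopamine and 12.4, 13.1 and 15.2 in serotonin libraries. Groups did not overlap for either gene. The 2.15-fold difference of ric-7 (limma adjusted p = 0.0155) was lost without dopamine 2, serotonin 1 or serotonin 2 (0.0585, 0.0579 and 0.05298), without both libraries rich in ribosomal RNA (0.0581) and under ribosomal protein or pan-neuronal scaling (0.0758 and 0.645, with 6.82e-04 to 0.645 across the alternatives).

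The JNK gene jnk-1, a kinase that UNC-16 and JIP-1 scaffold, stood at 20, 25.3 and 35.9 FPKM in dopamine and 12.4, 13.2 and 11.9 in serotonin libraries. The 2.10-fold difference was near the threshold (limma adjusted p = 0.0331). It was lost without dopamine 2 or 3 or any 1 of the serotonin libraries (limma adjusted p = 0.0682, 0.145, 0.0857, 0.0765 and 0.0806), without both libraries rich in ribosomal RNA (0.0610), with no filter (0.0594), on FPKM (0.0536) and under ribosomal protein or pan-neuronal scaling (0.0813 and 0.724, with 0.00375 to 0.724 across the alternatives). The other calls were jip-1, a JIP1-type scaffold for kinesin-1 and JNK (log2 fold change 1.03, limma adjusted p = 0.0176), and cdka-1, an activator of CDK-5 kinase (0.87, 0.0331), both named after their values were seen. Relative to pan-neuronal genes the log2 fold changes of sad-1, ric-7, jnk-1 and jip-1 were 0.26, 0.17, 0.14 and 0.10, and that of cdka-1 was -0.06. In that setting none of the 23 genes passed toward dopamine and 2 toward serotonin neurons, beside 1.1% and 22.4% of all tested genes. The list's count was 2 without dopamine 3 or serotonin 2 and 3 without dopamine 2, serotonin 1 or both libraries rich in ribosomal RNA. With ribosomal protein scaling it was 1, and with the replicate block 9, beside 6.78% of all tested genes with the block. Touch neuron and other neuron type markers summed to 2286 to 3940 normalized counts in dopamine and 1367 to 1875 in serotonin libraries, with 2 of 9 passing toward dopamine neurons, and their part in these calls was not tested.

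**Figure D5:**
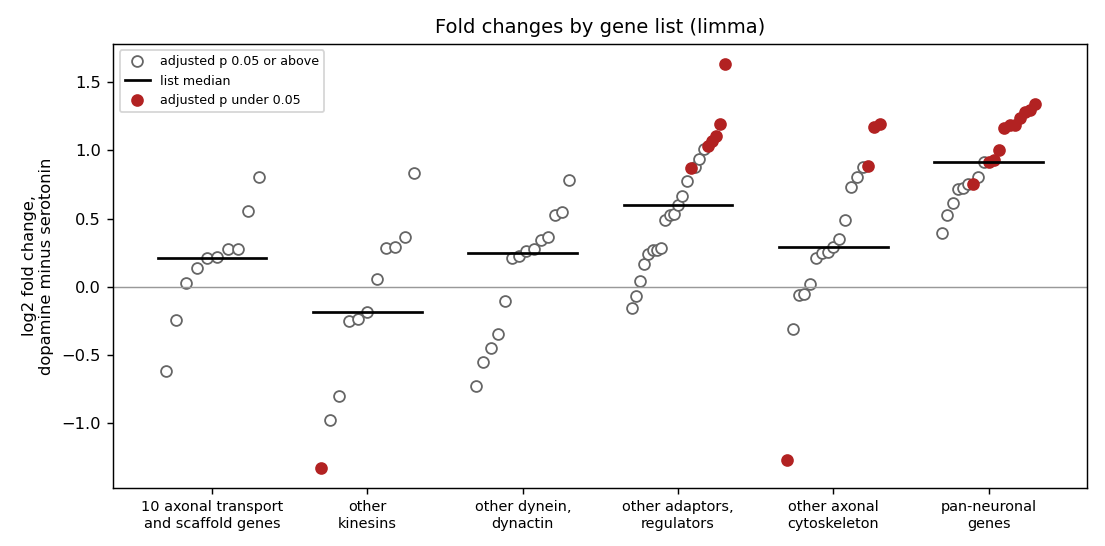
Log2 fold change, dopamine minus serotonin, of each tested gene by list, filled where the limma adjusted p was under 0.05, with a bar for the list median. The 10 transport and scaffold genes hold no filled point, the adaptors and regulators hold 6 and the pan-neuronal genes 11.

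Of 17 other axonal cytoskeleton genes, 3 passed toward dopamine and 1 toward serotonin neurons, beside 3.16% and 6.36% of all tested genes, with a median of 0.29. A single call toward serotonin neurons is near that background. The EMAP-like microtubule gene elp-1 had 13.5, 11.9 and 10.1 FPKM in dopamine and 5.14, 5.37 and 4.86 in serotonin libraries (2.29-fold, limma adjusted p = 0.0173). Leaving out dopamine 1 or serotonin 1 ended this call (limma adjusted p = 0.0566 and 0.0563), as did leaving out both libraries rich in ribosomal RNA (0.0978) and ribosomal protein or pan-neuronal scaling (0.0763 and 0.535, with 6.42e-04 to 0.535 across the alternatives). The tau homolog gene ptl-1 had 73.3, 48.1 and 64.7 FPKM in dopamine and 23.8, 21.3 and 39.1 in serotonin libraries (2.26-fold, limma adjusted p = 0.0269). Neither gene overlapped between the groups. For ptl-1 the call ended without dopamine 1 or 3 or serotonin 1 or 2 (limma adjusted p = 0.0844, 0.103, 0.0772 and 0.104) and under ribosomal protein or pan-neuronal scaling (0.127 and 0.430, with 0.00107 to 0.430 across the alternatives).

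The Enabled homolog gene unc-34, an actin regulator of axon guidance, had 123.8, 119.2 and 145 FPKM in dopamine and 54.8, 68.6 and 90.2 in serotonin libraries. It was nearest the threshold (1.85-fold, limma adjusted p = 0.0452). Leaving out dopamine 1, 2 or 3 or serotonin 1 or 2 lost the call (limma adjusted p = 0.0854, 0.0821, 0.175, 0.1703 and 0.123). So did leaving out both libraries rich in ribosomal RNA (0.0606), FPKM (0.0614), edgeR (0.0690) and ribosomal protein or pan-neuronal scaling (0.184 and 0.870, with 0.00220 to 0.870 across the alternatives), and relative to pan-neuronal genes its log2 fold change was -0.05. For elp-1 and ptl-1 the latter value was 0.26 and 0.24. In the opposite direction sma-1, the beta-heavy spectrin gene, had 7.95, 12.9 and 10.5 FPKM in dopamine and 19.4, 31.4 and 24.8 in serotonin libraries (2.41-fold, limma adjusted p = 0.0105). That call held without each library in turn and was lost without both libraries rich in ribosomal RNA (log2 fold change -1.09, limma adjusted p = 0.0822, with 5.72e-05 to 0.0822 across the alternatives). Pharyngeal muscle markers moved in the same direction as sma-1, and their part in its value was not tested. The neuronal beta spectrin gene unc-70 and the alpha spectrin gene spc-1, partners of ankyrin named after their values were seen, had log2 fold changes of 0.35 and 0.29 and did not pass (limma adjusted p = 0.371 and 0.501). The count toward dopamine neurons was 0 without dopamine 1 or serotonin 1 and under ribosomal protein or pan-neuronal scaling, 1 without dopamine 3, serotonin 2 or both libraries rich in ribosomal RNA, 2 by edgeR and 7 with the replicate block. With that block 6.78% of all tested genes passed toward dopamine neurons. Under pan-neuronal scaling 5 of the 17 passed toward serotonin neurons, beside 22.4% of all tested genes.

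The mean profile of the 10 genes over the 6 libraries was most like those of eif-2D, ppfr-2, cnk-1, txl-1 and eas-1, with Pearson's r of 0.996, 0.995, 0.995, 0.994 and 0.993. This was the highest among 9950 genes with a mean of at least 50 normalized counts, of which 300 had an r above 0.9. All 6 libraries share their depth and scaling across genes, so r is given as a description.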

How the data were processed

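Each of 2 tables has 1 column per library. The authors deposited in the first a signal of normalized read counts, made by dividing the reads of each gene by 1 size factor per library, as the values show. In each column at least 99.998% of values were whole multiples of 1 step within a tolerance of 0.02, and division by the step (0.393 to 1.23) gave reads. The FPKM values deposited by the authors are the same numbers divided by a gene length (largest CV of the ratio over libraries 6.71e-05). STAR, HTSeq and DESeq2 are listed, without roles, per the submitters' processing notes. Their versions, the genome build and the strand setting were not given in the sources used here. Per the labels' protocols, libraries came from amplified nanogram amounts of RNA, which can raise the spread between libraries. Replicates differed by far more than sampling noise (chi-square per degree of freedom 116 to 458). Reads shared by overlapping genes, or by antisense genes if strand was not used, cannot be assigned with certainty.

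Genes were matched by identifier to Ensembl release 115 (WBcel235), which covered 46407 of 47063, and coordinates are of that release. Genes with at least 10 normalized counts in at least 3 of 6 libraries were tested (15750) by limma 3.58.1 with trend and robust options in R 4.3.3 on log2(normalized count + 1), with Benjamini-Hochberg adjustment and a threshold of 0.05. The procedure was checked on simulated data. Ratios were tested by exact permutation in SciPy 1.17.1. The alternatives were edgeR 4.0.16 (1164 genes called) and DESeq2 1.42.0 (2045) on recovered reads, pseudocounts of 0.5 and 8, no filter or a filter of 50, FPKM, TMM scaling, scaling to 19 pan-neuronal genes or to ribosomal protein genes, a replicate block, leaving out each library, and leaving out dopamine 1 with serotonin 3. Deviations of same-numbered libraries correlated at 0.433, 0.173 and 0.28, so numbers may pair the samples, by the data and not the labels. The main fit and the permutation test between groups did not use this pairing, and the replicate block was an alternative. The 2 libraries rich in ribosomal RNA, dopamine 1 and serotonin 3, carry different numbers. The genes and lists were chosen with earlier results of these data known. From each list up to 4 genes passing in the main fit with the largest fold change were named, or the 2 most abundant where none passed. Outside this rule, klp-7, klp-13, dnc-2 and nud-2 were named for passing with the replicate block, after their values were seen. Also named after their values were seen were jip-1, cdka-1, unc-70 and spc-1. The 5 genes of most like profile were named by Pearson's r.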

Additional observations from a re-analysis of the deposited data

How the results depend on the processing

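A count of 0 among the 10 genes is near the background, which was 9.52% of all tested genes in the main fit. The count stayed 0 under 16 of 19 alternatives, and the cause of the exceptions was not tested. Several of these alternatives changed the values little or left out libraries, so their number is no measure of strength. Scaled to pan-neuronal genes, 5 genes passed toward serotonin neurons, and 174 and 3535 genes passed in all toward dopamine and serotonin neurons, against 498 and 1002. In that setting log2 fold changes reversed for unc-104 (-0.13), klc-2 (-0.79), unc-16 (-0.38), unc-14 (-0.66), dhc-1 (-0.72), dnc-1 (-0.91), unc-33 (-0.66), unc-44 (-0.72), dyci-1 (-0.57) and unc-34 (-0.048). With the replicate block 2 genes passed toward dopamine neurons, and 1068 and 1842 in all. By edgeR with the replicate block, added after the data were seen, these were 2 and, toward dopamine neurons in all, 781. Scaled to ribosomal protein genes 299 genes passed toward dopamine neurons and dnc-1 reversed (-0.11). Without both libraries rich in ribosomal RNA that count was 294 and bicd-1 reversed (0.061).

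Leaving out each library in turn gave 224 to 455 genes toward dopamine and 581 to 1289 toward serotonin neurons. Small log2 fold changes then spanned 0, at -0.052 to 0.12 for dnc-1 (negative without dopamine 3 or serotonin 1), -0.069 to 0.25 for klc-2 (without serotonin 1) and -0.011 to 0.49 for unc-44 (without serotonin 2). The 60 mean FPKM values with 1 library left out moved by less than 1 SD. The mean of any 3 values must do so, and this is therefore no measure of stability. The test of pair ratios within replicate numbers was also added after the data were seen. Among these ratios, the small difference of unc-33 to unc-44 (0.06) ran from -0.21 without dopamine 2 to 0.23 without dopamine 1. Of 190 alternative fold changes of the 10 genes, 171 kept their direction and stayed short of the threshold.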
